A study of Mus musculus with 39 samples.

Results

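The genes described here encode the subunits of oxidative phosphorylation, measured in the livers of wild-type and PPARa-null mice treated with PFOA or with pirinixic acid, a PPARα agonist that the labels and plots give by its Wyeth code. Members were chosen by symbol alone. They are the genes whose probe carries a single symbol beginning with Nduf, Uqcr, Atp5 or Cox4 to Cox8, together with Sdha, Sdhb, Sdhc, Sdhd, Cyc1 and Cycs, and without Cox6b2. This gave 66 of the 13840 genes with a single-symbol probe, and each gene was represented by its brightest probe over the 39 arrays. Of the 66, 27 were named as complex I subunits (among them Ndufs5-ps, annotated as a transcribed pseudogene), 4 belong to complex II, 7 to complex III, 11 to complex IV and 12 to complex V. Another 4 are complex I assembly factors whose symbols also begin with Nduf, and Cycs is cytochrome c. PFOA is a perfluorinated fatty acid, and the null mice address how far its effects in liver require PPARα.

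Adult male mice of a 129SV background, either wild type or PPARa-null in the whole animal, received the ammonium salt of PFOA by gavage at 0, 1 or 3 mg/kg in deionized water, or pirinixic acid at 0 or 50 mg/kg in 0.5% methylcellulose, for 7 days in a row. Every comparison below is therefore between 4 arrays and 4, except that wild type with methylcellulose has 3 arrays. The series' design names 4 animals per group, and the labels number the arrays without tying them to animals, so p-values measure the spread between these arrays. Each value is a signal from 1 array on a scale taken as log2, so a difference of 1 is a doubling. Signals were not compared between probes as amounts of RNA.

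Oxidative phosphorylation passes electrons from NADH through complex I (NADH dehydrogenase) and from succinate through complex II (succinate dehydrogenase) to ubiquinone. Complex III (the cytochrome bc1 complex) passes them on to cytochrome c, and complex IV (cytochrome c oxidase) hands them to oxygen. Complexes I, III and IV pump protons across the inner mitochondrial membrane, and complex V (ATP synthase) uses the gradient to make ATP. Beta-oxidation of fatty acids, which PPARα controls in liver, feeds this chain with NADH and with electrons that enter at ubiquinone. Mitochondrial DNA encodes a part of complexes I, III, IV and V. The rest, including all members here, is encoded by nuclear genes.

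The arrays were checked with genes outside the set. Ppara itself was 15.62 to 16.84 on the wild-type arrays and 15.003 to 16.29 on the null arrays. The position of its probe against the deleted part of the gene is not known here, and it therefore checks no label. Cox6b2, the testis-type isoform of complex IV subunit 6b, was 13.29 to 17.56 on 18 of the wild-type arrays and 6.91 to 10.05 on the null arrays. Replicate 3 of the wild-type group given PFOA 1 mg/kg went against its label, with Cox6b2 at 9.06 and the PPARα target Ehhadh at 15.94 against 20.01 to 20.31 on the other arrays of its group. Differences that use the 1 mg/kg group in wild type are given with and without it. The 39 arrays also split into a set of 16 and a set of 23 by 84 probes, none of them a member's, and all 4 arrays of wild type with pirinixic acid lay in the larger set. Hepatocyte markers were bright in every wild-type group compared (mean of 5 genes 19.4 to 20.4), and the mean of 4 pancreas acinar markers was 7.68 to 8.75 over all 39 arrays, below the median of all probes, 9.14. A silent-gene index, the mean of 583 probes for genes not used in liver, was 8.68 to 9.23 and is used below as a covariate.

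Members were among the brightest probes of these livers. Their median rank was the 97.1th percentile of the 25295 probes with a value on every array. Atp5md, a small membrane subunit of ATP synthase, was the brightest at a mean of 20.6, followed by Uqcrq of complex III at 19.6. In complex II the brightest member was Sdhd, at 17.9, and in complex I Ndufa13, at 18.6. A few members were dim. Sdhb, the iron-sulphur subunit of succinate dehydrogenase, had a mean of 7.55, and Cox7b2, a complex IV isoform, also lay below the median of all probes; each lacked 2 values and was not tested, which left 64 tested members. Cox4i2 (8.35) and Cox8b (7.61), isoforms known from lung and from muscle, were near background as well. Replicate scatter was small for most members. The median SD within groups was 0.179 over the members against 0.541 over all tested probes, and it ran from 0.0937 for Ndufs3, a core subunit of complex I, to 0.801 for the dim Cox4i2.

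In wild-type liver the 3 mg/kg dose of PFOA raised 8 of the 64 tested members and lowered none (limma, Benjamini-Hochberg adjusted p under 0.05 over all 25295 probes). These 8, or 12.5%, compare with 3.37% of all tested probes called higher and 2.46% called lower. The test was also restricted to probes above the median signal, where nearly all members lie. There 11 of 62 members and 6.06% of the probes were called higher. The members' median log2 difference was 0.18 against -0.02 for all probes, and 57 of 64 differences were positive. In 10 members every treated array lay above every water array and in none below, where 5.7% and 4.53% of all probes did so. The called members came from complex I (Ndufa3, Ndufb3, Ndufs7), complex III (Uqcr11), complex IV (Cox6b1), complex V (Atp5g3, Atp5mpl) and cytochrome c (Cycs). In bulk liver a change in the share of a cell type and a change of RNA per cell cannot be told apart.

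pirinixic acid in wild-type mice raised 10 of 64 and lowered none. That is 15.6%, against 2.8% of all tested probes called higher and 3.3% called lower. With the test restricted to probes above the median signal, 13 of 62 members and 5.66% of those probes were called higher. The members' median was 0.19 against -0.03 for all probes, with 51 of 64 positive. The groups did not overlap for 22 members that were higher and 1 that was lower, against 7.8% and 9.55% of all probes. The calls were Ndufa3, Ndufa5, Ndufa12 and Ndufs4 of complex I, Uqcr10 and Uqcrfs1 of complex III, Atp5g3, Atp5mpl and Atp5pb of complex V, and Cycs. Atp5g3, Atp5mpl, Cycs and Ndufa3 were called with both compounds. The matching count over all probes is not given here, so this overlap is not read as a trait of the members. In PPARa-null mice no member was called with any treatment.

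**Figure D1:**
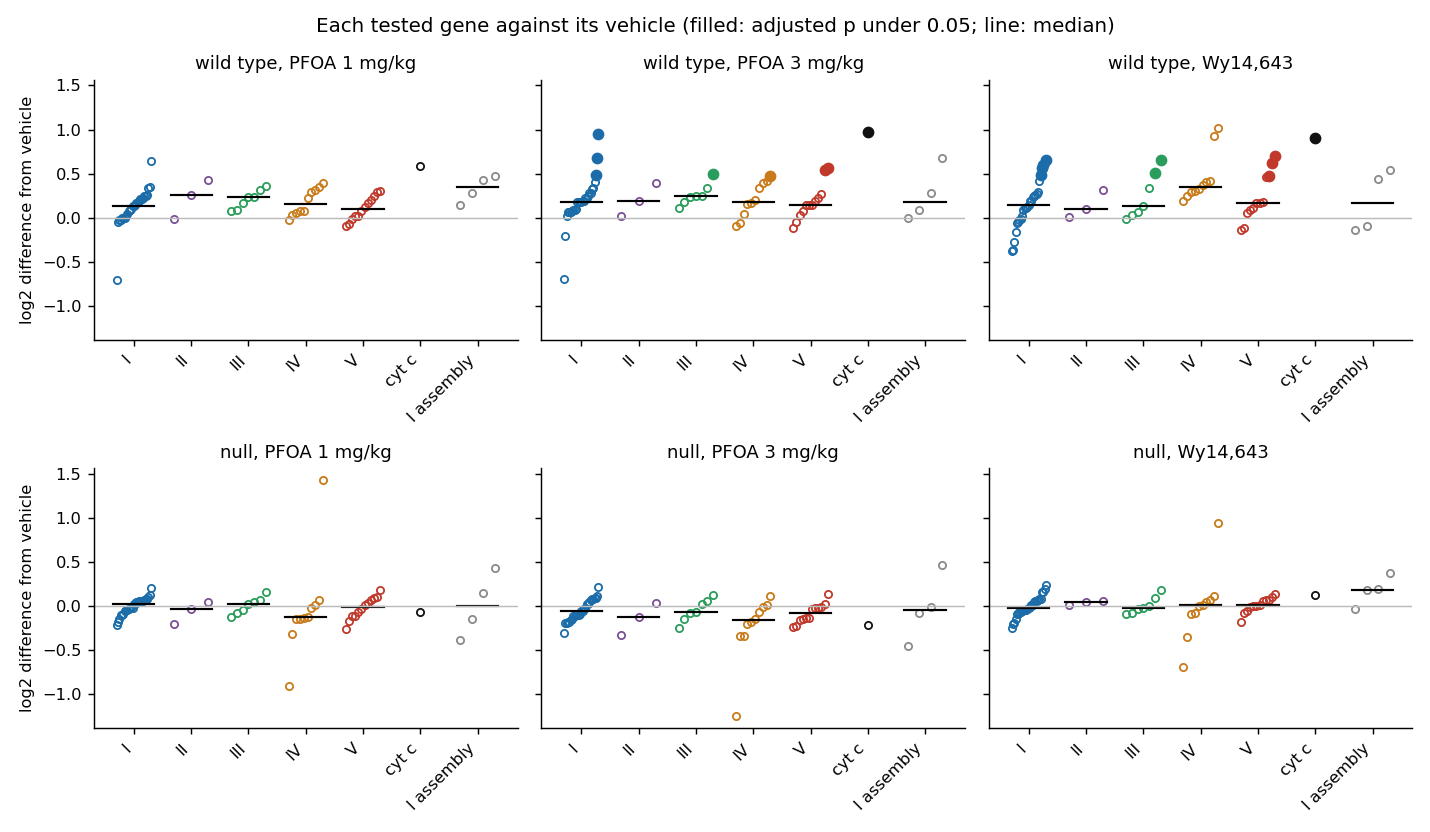
Log2 difference from vehicle (vertical axis) of each of the 64 tested members, 1 point per gene, by complex, for the 3 treatments in wild-type and PPARa-null liver; filled points are called members and lines are medians. In wild type with PFOA 3 mg/kg 57 of 64 points lie above 0, and in null mice with the same dose 19 of 64 do.

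The promoter windows of 5 members are shown because these genes had the largest called rises or a called difference between genotypes. They are the last 120 bases before the start of the gene, 5′ to 3′ on the gene's strand, from RefSeq on mouse build GRCm38.p6. Capitals mark matches to the motifs searched, a short NRF1 core or a CCAAT box on either strand. The windows lie at chr6:50566570-50566689 (minus strand) for Cycs, chr7:3617253-3617372 (plus) for Ndufa3, chr1:58586277-58586396 (plus) for Ndufb3, chr2:73911327-73911446 (minus) for Atp5g3 and chr13:114388095-114388214 (minus) for Ndufs4.
Cycs: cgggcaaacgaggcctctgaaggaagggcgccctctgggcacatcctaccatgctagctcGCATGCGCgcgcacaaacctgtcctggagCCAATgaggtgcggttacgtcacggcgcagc
Ndufa3: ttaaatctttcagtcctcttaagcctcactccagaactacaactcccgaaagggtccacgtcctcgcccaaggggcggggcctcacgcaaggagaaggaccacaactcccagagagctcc
Ndufb3: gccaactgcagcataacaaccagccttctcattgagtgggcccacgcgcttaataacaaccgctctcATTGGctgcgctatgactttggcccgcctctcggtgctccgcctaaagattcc
Atp5g3: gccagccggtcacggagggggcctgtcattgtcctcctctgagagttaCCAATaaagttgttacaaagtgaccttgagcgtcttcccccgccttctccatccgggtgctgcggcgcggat
Ndufs4: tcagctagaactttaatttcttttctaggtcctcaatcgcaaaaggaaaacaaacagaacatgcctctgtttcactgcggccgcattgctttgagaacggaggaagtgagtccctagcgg

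Of the 66 members, 55 had a promoter in the RefSeq table, 13 of them among the 14 called with either compound. The motifs were searched on both strands over the 250 bases before the start. The full NRF1 core (the 8 letters GCATGCGC with GC before them), bound by a regulator of nuclear genes for respiratory subunits, was found in 2 of 55 members (3.64%) and in 0.781% of the windows of all 27025 genes. Those 8 letters alone, a search added after the Cycs window had been read, were found in 6 (10.9%) against 2.32%, and among called members only in Cycs. The ETS core CCGGAAG, read by GABP, was in 7 (12.7%) against 7.05%, including Cox6b1 and Uqcr11. CCAAT was in 24 (43.6%) against 34.5%, including Atp5g3, Cox6b1, Cycs, Ndufb3 and Uqcr10. The direct repeat DR1 (AGGNCA, any base, AGGNCA), the type of element that PPARα binds, was in 0 of 55 against 0.333%, and the YY1 motif AANATGGCG in 1 of 55 against 1.12%. Members' windows had a median GC content of 57.6% against 52.0%, so a GC-rich motif has more chances to occur in them; a match is only a match of letters.

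Cycs, the mobile carrier between complexes III and IV, showed the largest difference of any member with PFOA 3 mg/kg. Its signals in wild type were 17.97, 17.61, 17.98 and 17.81 with water, 18.59, 18.69, 18.003 and 18.41 with PFOA 1 mg/kg, and 18.51, 19.02, 19.15 and 18.58 with PFOA 3 mg/kg. The 3 mg/kg arrays all lay above the water arrays, and the lowest 1 mg/kg value belongs to the array that went against its label. With methylcellulose the signals were 17.94, 17.54 and 18.19, and with pirinixic acid 18.66, 18.39, 19.45 and 18.68, again with no overlap. The rise was 1.96-fold with PFOA 3 mg/kg (log2 0.97 ± 0.21 SE, limma adjusted p = 0.00382) and 1.87-fold with pirinixic acid (0.91 ± 0.23, adjusted p = 0.0138). With PFOA the call was kept whichever array was left out (log2 0.86 to 1.07). With pirinixic acid it was lost without methylcellulose replicate 2 or pirinixic acid replicate 3, over a range of 0.69 to 1.06. The dimmer of the gene's 2 probes gave 0.74 ± 0.18 (adjusted p = 0.00945) with PFOA 3 mg/kg and 0.90 ± 0.19 (adjusted p = 0.0042) with pirinixic acid.

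In null mice Cycs stayed between 17.20 and 18.04 on all 20 arrays, within or below the range of the wild-type vehicle arrays. Its difference there was -0.22 ± 0.21 with PFOA 3 mg/kg, -0.07 ± 0.21 with 1 mg/kg and 0.12 ± 0.21 with pirinixic acid. The response in null mice minus that in wild type was -1.19 ± 0.30 for PFOA 3 mg/kg, the smallest adjusted p of any member in that comparison at 0.0702, and -0.78 ± 0.31 for pirinixic acid (adjusted p = 0.208). On the dimmer probe these differences were -0.72 ± 0.25 (adjusted p = 0.265) and -0.96 ± 0.26 (adjusted p = 0.0599). No Cycs probe passed the threshold for a difference between genotypes.

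Complex I, the largest complex, had 3 calls of 27 with PFOA 3 mg/kg and 4 of 27 with pirinixic acid. Ndufa3, a small accessory subunit, was 18.23, 18.09, 18.21 and 18.10 with water and 18.65, 19.05, 19.08 and 18.57 with PFOA 3 mg/kg in wild type. With methylcellulose it was 18.33, 18.10 and 18.22, and with pirinixic acid 19.08, 18.71, 19.02 and 18.67. Both treated groups lay wholly above their vehicles. The rises were 1.60-fold (0.68 ± 0.14, adjusted p = 0.0022, the smallest of any member with PFOA) and 1.57-fold (0.65 ± 0.15, adjusted p = 0.0074), and both calls were kept with any single array left out. The null groups ran from 17.98 to 18.64. In them Ndufa3 differed by -0.05 ± 0.14 with PFOA 3 mg/kg and by -0.24 ± 0.14 with pirinixic acid.

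Ndufb3, an accessory subunit of the membrane arm, rose 1.93-fold with PFOA 3 mg/kg. Its signals were 13.46, 12.73, 13.10 and 13.12 with water and 13.96, 14.04, 14.44 and 13.76 with PFOA, without overlap (0.95 ± 0.23, adjusted p = 0.0116). The call was lost without water replicate 2 or PFOA replicate 3 (0.82 to 1.07 over the arrays left out), and with the silent-gene index as a covariate. With pirinixic acid its difference was 0.62 ± 0.25 (adjusted p = 0.149), and the treated arrays, 14.07, 13.53, 14.20 and 13.60, again lay above the vehicle arrays at 13.49, 12.89 and 13.32. Null signals were 12.21 to 13.76, with differences of 0.08 with PFOA 3 mg/kg, 0.13 with 1 mg/kg and 0.16 with pirinixic acid.

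Ndufs7, a core subunit that carries the last iron-sulphur cluster before ubiquinone, was 16.63, 16.57, 16.66 and 16.58 with water and 16.62, 17.47, 17.31 and 16.98 with PFOA 3 mg/kg. One treated array lay within the water range, so the groups overlapped. The difference was 0.48 ± 0.14 (adjusted p = 0.0314), and the call was lost without water replicate 2, 3 or 4 or PFOA replicate 2 or 3 (0.36 to 0.64). It was also lost with the silent-gene index as a covariate, with arrays centred on ribosomal protein genes and with probes lacking a value tested too. With pirinixic acid the wild-type arrays were 16.88, 16.93, 16.95 and 16.82 against 16.73, 16.73 and 16.87, a difference of 0.12 ± 0.15 with overlapping groups (adjusted p = 0.702).

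Ndufs4, an accessory subunit of the matrix arm needed for a stable complex, moved with pirinixic acid. It was 17.33, 17.24 and 17.09 with methylcellulose and 17.89, 17.83, 17.78 and 17.76 with pirinixic acid, a 1.51-fold rise (0.59 ± 0.13, adjusted p = 0.00468) kept with any array left out. The treated arrays were tightly grouped and far from the vehicle arrays. In null mice it was 17.27, 17.41, 17.74 and 17.17 with methylcellulose and 17.35, 17.10, 17.10 and 17.27 with pirinixic acid (-0.19 ± 0.12), groups that overlap. PFOA 3 mg/kg gave 0.28 ± 0.12 (adjusted p = 0.194) in wild type.

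Ndufa12 and Ndufa5, accessory subunits, were also called with pirinixic acid. Ndufa12 was 16.79, 16.63 and 16.70 with methylcellulose and 17.19, 17.26, 17.34 and 17.26 with pirinixic acid (0.56 ± 0.13, adjusted p = 0.00977). Ndufa5 was 16.60, 16.35 and 16.59 against 16.997, 16.92, 17.20 and 16.89 (0.49 ± 0.14, adjusted p = 0.034). Neither pair of groups overlapped. Ndufa12 lost its call without methylcellulose replicate 2 (0.52 to 0.60 over the arrays left out), and its water arrays, 16.79 to 17.16, were mostly above those with methylcellulose. Ndufa5 lost its call without methylcellulose replicate 1, 2 or 3 or pirinixic acid replicate 3 (0.41 to 0.53), or with probes lacking a value tested too.

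Some complex I members pointed the other way. Ndufb8, a membrane-arm subunit read by a dim and scattered probe (mean 10.7, SD within groups 0.531), gave the lowest difference of all members with each treatment in wild type. It was 10.72, 11.24, 10.997 and 11.24 with water, 10.60, 8.84, 11.23 and 10.70 with PFOA 1 mg/kg, 10.86, 9.58, 10.01 and 10.95 with PFOA 3 mg/kg and 10.14, 10.80, 10.56 and 10.94 with pirinixic acid. The treated arrays overlapped the vehicle arrays in each case, and the differences of -0.71, -0.70 and -0.37 were not called. Without the array that went against its label (11.23), the remaining 1 mg/kg arrays all lay below the water arrays. The difference was then -1.003, again not called. Ndufa13, also required for assembly of the complex, was the brightest complex I member and the other one with a negative difference with PFOA 3 mg/kg. It was 18.69, 18.62, 18.72 and 18.69 with water and 18.28, 18.43, 18.47 and 18.69 with PFOA, groups that overlap at 1 array, and it was not called. The assembly factor Ndufaf4 was 0.68 ± 0.22 higher with PFOA 3 mg/kg (adjusted p = 0.0672) and 0.47 ± 0.22 higher in null mice at that dose (adjusted p = 0.582), and Ndufaf7, a methyltransferase that acts on complex I, was 0.54 ± 0.18 higher with pirinixic acid in wild type (adjusted p = 0.0676). None of these passed the threshold, and none of the 4 assembly factors was called in any comparison.

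Complex II had no call. Sdha, the flavoprotein that oxidises succinate, was 16.82, 16.31, 16.39 and 16.81 with water and 17.08, 16.53, 16.62 and 16.84 with PFOA 3 mg/kg in wild type, groups that overlap. It was 17.02, 16.47, 16.41 and 16.72 with pirinixic acid against 16.76, 16.44 and 16.74, which also overlap. Sdhc, which anchors the enzyme in the membrane and helps bind ubiquinone, was 17.28, 17.05, 17.26 and 17.26 with water, 17.48, 17.65, 17.79 and 17.63 with PFOA 1 mg/kg and 17.32, 17.70, 17.80 and 17.62 with PFOA 3 mg/kg. Both PFOA groups lay above the water group, but the differences of 0.43 ± 0.15 (adjusted p = 0.299) and 0.40 ± 0.15 (adjusted p = 0.134) were not called. Without the array that went against its label, the 1 mg/kg difference was 0.37 ± 0.17 (adjusted p = 0.407). Sdhd, the other anchor subunit, differed by 0.02 with PFOA 3 mg/kg and by 0.31 with pirinixic acid, also without a call. The Sdhb probe, at 5.93 to 9.01 over the arrays that gave a value, gives no usable level for the iron-sulphur subunit.

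In complex III, 1 of 7 members was called with PFOA 3 mg/kg and 2 of 7 with pirinixic acid. Uqcr11, a small accessory subunit, was 18.33, 18.01, 18.24 and 18.18 with water and 18.38, 18.94, 18.63 and 18.76 with PFOA 3 mg/kg (0.49 ± 0.13, adjusted p = 0.0249). The groups did not overlap, though the lowest treated array lay close to the highest water array. The call was lost without water replicate 2 or 4 or PFOA replicate 2, 3 or 4 (0.40 to 0.59), with the silent-gene index or with ribosomal centring. Uqcr10, another small accessory subunit, was 17.78, 17.93 and 17.91 with methylcellulose and 18.29, 18.74, 18.48 and 18.60 with pirinixic acid, a 1.57-fold rise (0.65 ± 0.15, adjusted p = 0.00661) kept with any array left out. Its null arrays were 17.61, 17.84, 18.05 and 17.81 with methylcellulose and 17.72, 17.79, 18.13 and 17.54 with pirinixic acid, which overlap.

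Uqcrfs1, the Rieske iron-sulphur protein that takes the first electron from ubiquinol, was 18.42, 18.51 and 18.49 with methylcellulose and 19.05, 18.99, 19.06 and 18.82 with pirinixic acid (0.51 ± 0.13, adjusted p = 0.02). The groups were apart, but the call was lost without any one of the 3 methylcellulose arrays or without pirinixic acid replicate 3 (0.48 to 0.56) and with ribosomal centring, and its water arrays ran from 18.31 to 18.87. The core subunits Uqcrc1 and Uqcrc2 and cytochrome c1 (Cyc1) were not called in any comparison, and Uqcrq, at 19.20 to 19.99 with PFOA 3 mg/kg against 19.39 to 19.68 with water, overlapped its controls.

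Cytochrome c oxidase had 1 call of 10 with PFOA 3 mg/kg and none with pirinixic acid. Cox6b1, the subunit that faces cytochrome c, was 18.54, 18.11, 18.47 and 18.19 with water, 18.68, 18.78, 18.73 and 18.69 with PFOA 1 mg/kg and 18.40, 18.96, 18.98 and 18.84 with PFOA 3 mg/kg. One array at 3 mg/kg lay among the water arrays. The rise was 0.47 ± 0.14 (adjusted p = 0.0459), close to the threshold, and the call was lost without water replicate 2, 3 or 4 or PFOA replicate 2, 3 or 4 (0.40 to 0.60), with the silent-gene index, with ribosomal centring and with probes lacking a value tested too. With pirinixic acid all 10 tested members were positive, at a median of 0.35 and with 4 of 10 not overlapping their vehicle, but the smallest adjusted p was 0.0958, for Cox7b at 0.41 ± 0.15. Cox4i1, the common isoform of the regulatory subunit 4, was 19.14, 18.95 and 19.21 with methylcellulose and 19.43, 19.10, 19.30 and 19.31 with pirinixic acid, which overlap. Its null arrays at PFOA 3 mg/kg, 18.88, 18.89, 18.93 and 18.87, all lay below the null water arrays at 19.05 to 19.18, a difference of -0.21 ± 0.11 that was not called (adjusted p = 0.627). Cox8a, the ubiquitous form of subunit 8, was 0.33 ± 0.16 higher with PFOA 3 mg/kg and 0.40 ± 0.17 higher with pirinixic acid, neither called.

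The muscle and lung isoforms of complex IV scattered widely and gave no call. Cox7a1, the heart and muscle form of subunit 7a, had the widest range of group means of any member, 10.5 with PFOA 3 mg/kg in null mice to 12.8 with pirinixic acid in wild type. In null mice it was 11.70, 11.96, 12.01 and 11.17 with water and 10.86, 11.20, 10.52 and 9.27 with PFOA 3 mg/kg, which overlap slightly (-1.25 ± 0.36, adjusted p = 0.2). In wild type it was 11.38, 11.92 and 12.19 with methylcellulose and 13.25, 12.92, 12.82 and 12.04 with pirinixic acid, which overlap at 1 array (0.93 ± 0.39, adjusted p = 0.162). The 4 tested striated muscle markers of 10 listed had no call there either; their mean ran from 8.77 to 9.12 with methylcellulose and from 9.01 to 10.04 with pirinixic acid, and their part in the Cox7a1 difference was not tested. Cox4i2 was 8.09, 10.76, 8.98 and 9.61 with PFOA 1 mg/kg against 7.44, 8.29, 8.05 and 7.93 with water in null mice (1.43 ± 0.55, overlapping groups, not called). Cox8b was 9.17, 7.17, 8.47 and 8.58 with pirinixic acid against 7.22, 7.13 and 7.62 in wild type, also overlapping.

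Complex V had 2 calls of 12 with PFOA 3 mg/kg and 3 of 12 with pirinixic acid. Atp5g3 is one of several genes for subunit c, the proteolipid that forms the rotating ring. It was 18.85, 18.70, 18.93 and 18.83 with water, 19.10, 19.25, 18.88 and 19.05 with PFOA 1 mg/kg and 19.40, 19.46, 19.50 and 19.19 with PFOA 3 mg/kg in wild type. With methylcellulose it was 18.90, 18.48 and 18.83, and with pirinixic acid 19.51, 19.18, 19.50 and 19.56. The 3 mg/kg and pirinixic acid arrays all lay above their vehicle arrays. The rises were 1.47-fold (0.56 ± 0.13, adjusted p = 0.00717) and 1.62-fold (0.70 ± 0.14, adjusted p = 0.00232), and both calls were kept with any array left out. With ribosomal centring the call with PFOA was lost. The other genes for the same subunit, Atp5g1 and Atp5g2, were not called in any comparison; Atp5g1 differed by 0.46 ± 0.16 with pirinixic acid (adjusted p = 0.0771), with no overlap between 18.83 to 18.94 and 19.22 to 19.48.

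Atp5mpl, a small proteolipid at the base of the membrane domain, was 17.68, 17.30, 17.63 and 17.54 with water and 18.08, 18.12, 18.26 and 17.84 with PFOA 3 mg/kg. With methylcellulose it was 17.60, 17.36 and 17.76, and with pirinixic acid 18.20, 17.91, 18.17 and 17.89. No treated array fell within its vehicle's range. The differences were 0.54 ± 0.13 (adjusted p = 0.00694, kept with any array left out) and 0.47 ± 0.14 (adjusted p = 0.0339), the latter lost without methylcellulose replicate 1 or 2 or pirinixic acid replicate 1 or 3 (0.36 to 0.56), or with probes lacking a value tested too. Null arrays lay between 17.09 and 17.68 in all groups.

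Atp5pb, subunit b of the stalk that holds the catalytic head still, was 17.97, 17.50 and 17.49 with methylcellulose and 18.18, 18.36, 18.25 and 18.31 with pirinixic acid (0.62 ± 0.19, adjusted p = 0.0449). Its 8 wild-type arrays with water or PFOA 3 mg/kg ran from 17.79 to 18.62, so the methylcellulose values of 17.49 and 17.50 were the lowest among these wild-type groups. The call was lost without methylcellulose replicate 2 or 3 or pirinixic acid replicate 2, 3 or 4 (0.54 to 0.78), with the silent-gene index, with ribosomal centring and with probes lacking a value tested too. The catalytic beta subunit Atp5b did not follow: it was 19.17, 19.37, 19.36 and 19.42 with water and 19.49, 19.03, 18.88 and 19.44 with PFOA 3 mg/kg, with the treated arrays on both sides of the controls. Atp5md stayed between 20.24 and 20.86 on all 39 arrays.

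**Figure D2:**
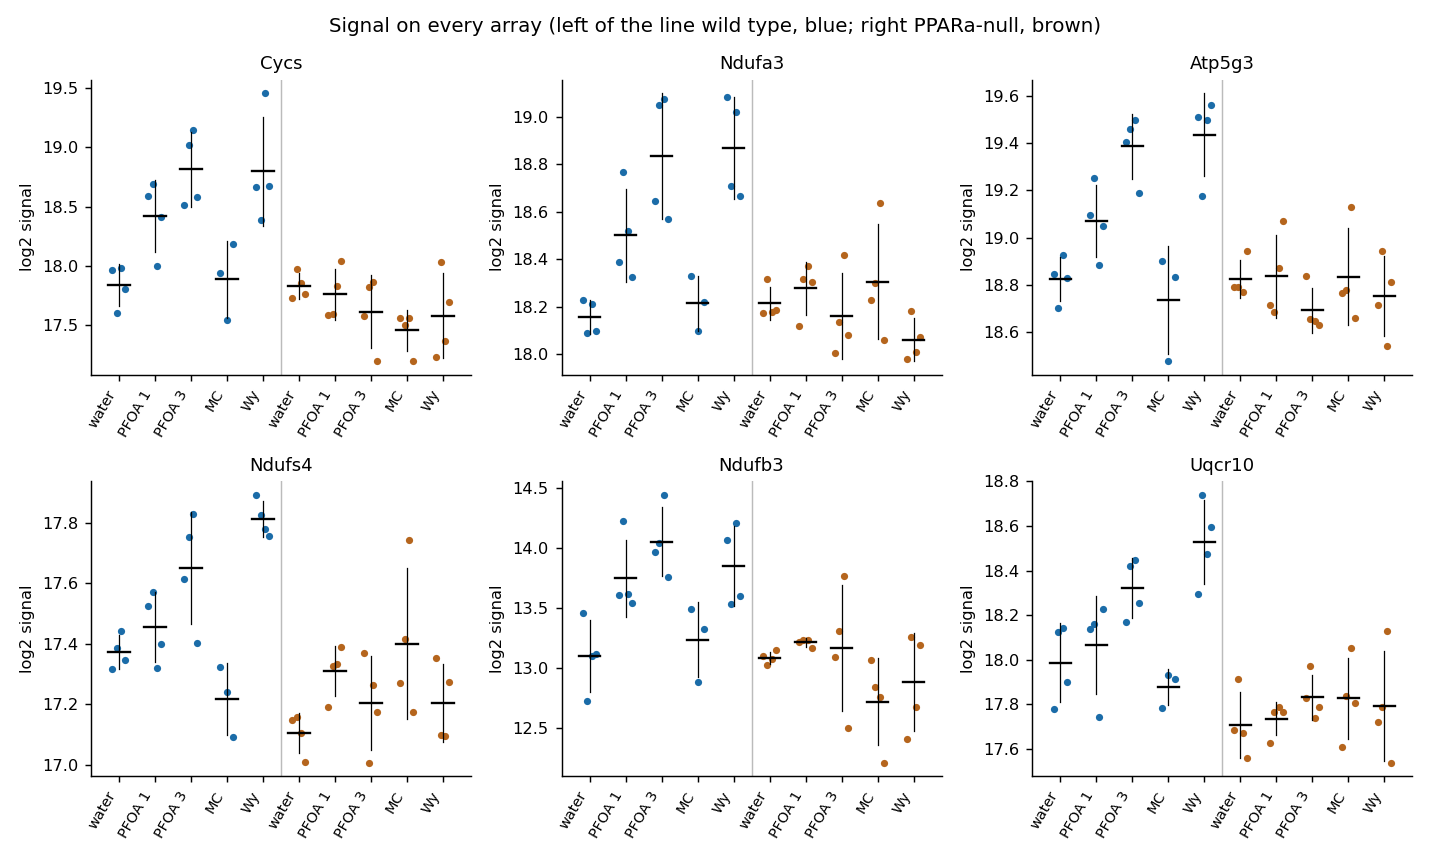
Log2 signal (vertical axis) of Cycs, Ndufa3, Atp5g3, Ndufs4, Ndufb3 and Uqcr10 on every array, by group (MC, methylcellulose), 1 point per array, with the group mean and SD as lines. Cycs is at 18.51 to 19.15 with PFOA 3 mg/kg in wild type, above the water arrays at 17.61 to 17.98 and above every null array.

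By complex, the median shifts in wild type were positive for all 5 complexes with either compound. With PFOA 3 mg/kg in wild type the median difference was 0.18 for complex I (25 of 27 positive), 0.18 for complex II (3 of 3), 0.25 for complex III (7 of 7), 0.18 for complex IV (8 of 10) and 0.14 for complex V (10 of 12). With pirinixic acid it was 0.14 for complex I (19 of 27), 0.10 for complex II (3 of 3), 0.14 for complex III (6 of 7), 0.35 for complex IV (10 of 10) and 0.16 for complex V (10 of 12). Complex IV had the largest median of the 5 complexes with pirinixic acid, and its highest values there were those of Cox8b and Cox7a1. Differences between complexes were not tested, since members of a complex are not replicates.

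The mean of a complex's members on each array, centred on each member's mean over the 39 arrays, shows how the replicates behaved. Complex V was -0.04, -0.12, 0.04 and 0.01 with water and 0.11, 0.17, 0.18 and 0.15 with PFOA 3 mg/kg in wild type, and -0.03, -0.12 and 0.05 with methylcellulose and 0.18, 0.18, 0.23 and 0.18 with pirinixic acid. Both treated groups lay above their vehicles and varied little. Complex III was -0.11, -0.16, -0.05 and -0.03 with water and 0.02, 0.27, 0.23 and 0.18 with PFOA 3 mg/kg, and complex I 0.03, -0.12, -0.03 and -0.02 against 0.04, 0.22, 0.24 and 0.12. In both, PFOA replicate 1 came close to the highest water array. Complex IV was 0.01, -0.05, 0.06 and -0.08 with water against -0.06, 0.41, 0.27 and 0.11 with PFOA 3 mg/kg, which overlap, and -0.17, -0.05 and 0.12 with methylcellulose against 0.53, 0.42, 0.48 and 0.25 with pirinixic acid, which do not. The complex IV mean includes the dim Cox4i2 and Cox8b and the scattered Cox7a1. With pirinixic acid this mean differed by 0.45 and the median over the members by 0.35, with Cox8b highest at 1.02.

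**Figure D3:**
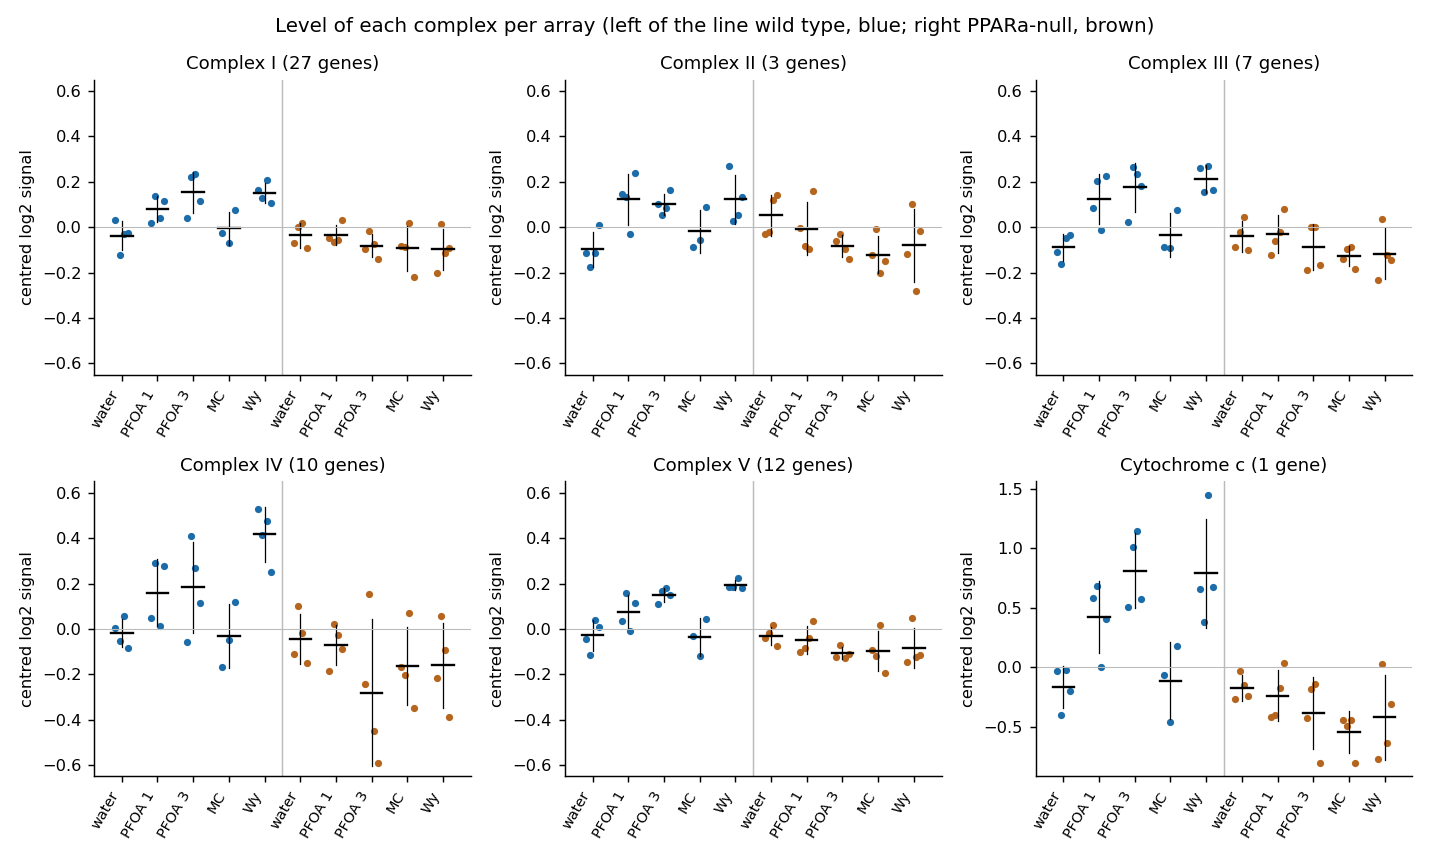
Mean log2 signal of the members of each complex on every array, centred on each member's mean over the 39 arrays (vertical axis), by group; points are arrays, and lines the group mean and SD (MC, methylcellulose). Complex V in wild type is at 0.11 to 0.18 with PFOA 3 mg/kg and 0.18 to 0.23 with pirinixic acid, against -0.12 to 0.04 with water and -0.12 to 0.05 with methylcellulose.

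In null mice the complex levels moved little or down. Complex V was -0.04, -0.02, 0.02 and -0.08 with water and -0.12, -0.07, -0.13 and -0.11 with PFOA 3 mg/kg, while complex IV was -0.11, 0.10, -0.02 and -0.15 with water and -0.24, 0.16, -0.45 and -0.59 with that dose. The complex V groups overlap narrowly and the complex IV groups widely. The complex IV mean differed by -0.24 and the median over its members by -0.16, with Cox7a1 lowest at -1.25. Over all members the null median was -0.08 with PFOA 3 mg/kg (19 of 64 positive, 3 at an unadjusted p under 0.05), -0.02 with 1 mg/kg (30 of 64, 1) and 0.01 with pirinixic acid (36 of 64, 0). The last 2 of these medians lie so near 0 that they changed sign when single arrays were left out. Of all 25295 probes, 2111, 1003 and 691 had an unadjusted p under 0.05 in these comparisons in turn. The background was low as well: limma called 0.261% of all probes higher and 0.0395% lower with PFOA 3 mg/kg, 0.0119% higher with 1 mg/kg and 0% with pirinixic acid, so the count of 0 members is near what all probes gave.

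Whether the response differed between genotypes was tested directly as the difference of the responses, null minus wild type. For pirinixic acid, 3 of 64 members were called, all lower in null, against 0.542% of all probes called lower and 0.696% called higher. They were Ndufa3 (-0.90 ± 0.20, adjusted p = 0.0222), Ndufs4 (-0.79 ± 0.18, adjusted p = 0.0193) and Atp5g3 (-0.78 ± 0.19, adjusted p = 0.0352). For Ndufs4 the null difference of -0.19 ± 0.12 adds to the wild-type rise of 0.59 in this value, and for Ndufa3 the null difference of -0.24 ± 0.14 does so. Over arrays left out the values ran from -0.98 to -0.79 for Ndufa3, -0.87 to -0.68 for Ndufs4 and -0.87 to -0.65 for Atp5g3. All 3 calls were lost without wild-type methylcellulose replicate 3 or null methylcellulose replicate 3, and some also without other arrays, 7 of 15 for Atp5g3, which also lost its call with ribosomal centring and with probes lacking a value tested too. With only the groups compared, none of the 3 passed. The closest other members were Ndufa12 (-0.62 ± 0.18, adjusted p = 0.0786) and Uqcr10 (-0.69 ± 0.20, adjusted p = 0.0791).

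For PFOA 3 mg/kg no member passed this test of the genotype difference by limma, against 0.332% of all probes called lower and 0.083% called higher. The median over members was -0.29 against -0.01 over all probes, and 59 of 64 values were negative. An unadjusted p under 0.05 was found for 15 of 64 members and for 2719 of all 25295 probes. With the silent-gene index as a covariate the median was -0.18 and 11 of 64 values were positive. An unadjusted p under 0.05 was then found for 7 of 64 members and for 1937 of all probes. The smallest adjusted p-values were those of Cycs (0.0702), Atp5g3 (-0.69 ± 0.18, 0.0977), Ndufa3 (-0.73 ± 0.20, 0.102) and Cox5b (-0.75 ± 0.21, 0.122), a subunit of complex IV. With the test restricted to probes above the median signal 3 members passed, all lower in null, against 0.7% of those probes. For PFOA 1 mg/kg no member passed, and no probe did. An unadjusted p under 0.05 was found for 6 of 64 members and for 1274 of all 25295 probes. Without the wild-type array that went against its label, again no member passed, while 0.154% of all probes were called lower and 0.00791% higher.

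**Figure D4:**
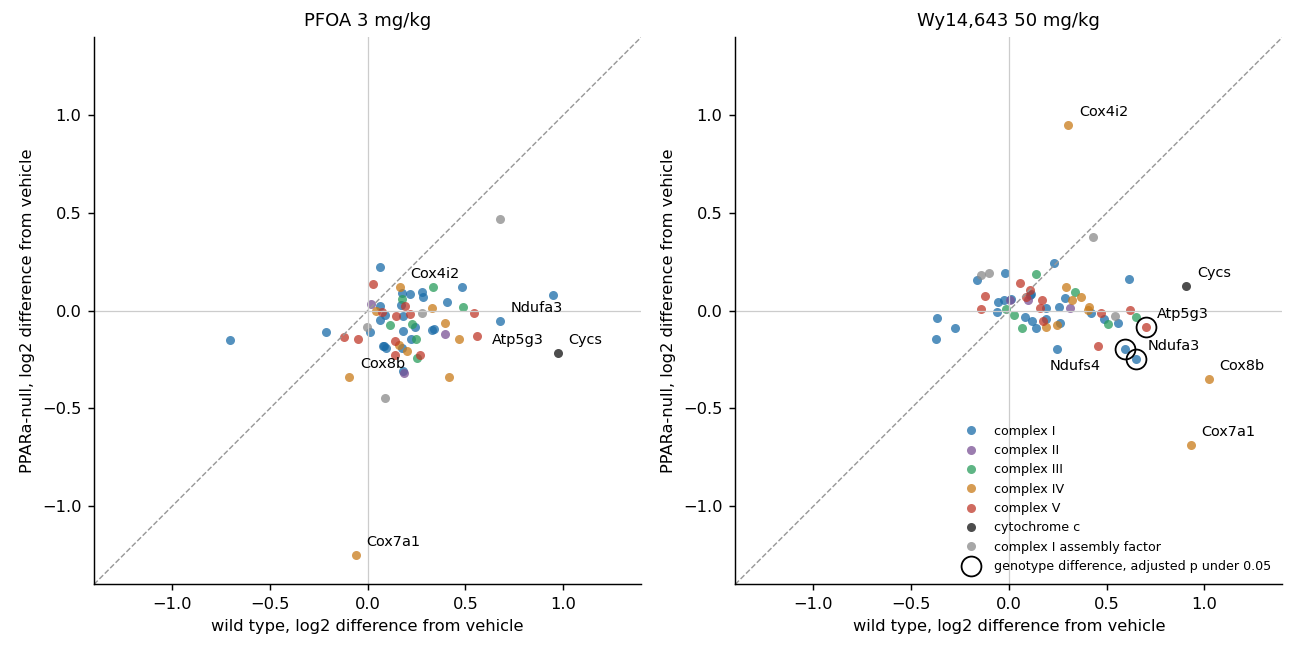
Log2 difference from vehicle in wild type (horizontal axis) against that in PPARa-null mice (vertical axis) for the 64 tested members, 1 point per gene, in 1 panel for PFOA 3 mg/kg and 1 for pirinixic acid; circles mark called genotype differences. Cycs lies at 0.97 and -0.22 with PFOA 3 mg/kg, and Ndufa3 at 0.65 and -0.24 with pirinixic acid.

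PFOA at 1 mg/kg in wild type called no member, against 0.241% of all probes called higher and 0.0316% called lower by limma. The members' median was still 0.16, with 53 of 64 positive. An unadjusted p under 0.05 was found for 13 of 64 members and for 2776 of all 25295 probes. The silent-gene index differed from that with water by -0.20. With the index as a covariate the median was 0.12 and 49 of 64 were positive. An unadjusted p under 0.05 was then found for 1 of 64 members and for 1750 of all probes. Without the array that went against its label the median was 0.19, 58 of 64 were positive, and again none was called, against 0.826% of all probes called higher and 0.158% lower. Cycs differed by 0.58 ± 0.21 with that array and by 0.72 without it, Ndufb3 by 0.64 ± 0.23 and 0.69, and Uqcr11 by 0.36 ± 0.13 and 0.50. On that array Cycs (18.003) and Uqcr11 (18.15) lay near or within the water range, while Ndufb3 (13.62), Atp5mpl (17.84) and Sdhc (17.79) did not. Between the doses, 3 against 1 mg/kg, no member was called, against 0.0158% of all probes called higher and 0.0119% lower. The difference was 0.39 for Cycs (95% interval -0.04 to 0.82), 0.33 for Ndufa3 (0.05 to 0.62) and 0.32 for Atp5g3 (0.05 to 0.58), so the intervals leave room for anything from almost no difference to a further rise. Without the array that went against its label, these values were 0.25 (-0.20 to 0.70), 0.34 (0.03 to 0.65) and 0.26 (-0.03 to 0.54), and again no member was called, against 0.00395% of all probes in each direction.

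The compounds were compared by subtracting the wild-type response to pirinixic acid from that to PFOA 3 mg/kg, at the single dose of pirinixic acid and in different vehicles. No member was called, against 0.00395% of all probes called higher and 0.00791% called lower. The values were 0.07 for Cycs (95% interval -0.57 to 0.70), 0.02 for Ndufa3 (-0.39 to 0.44), -0.14 for Atp5g3 (-0.53 to 0.25) and -0.32 for Ndufs4 (-0.68 to 0.04). The largest on the PFOA side was Ndufaf4 at 0.82 (0.15 to 1.49, adjusted p = 0.274). Untreated null and wild-type livers did not differ at any called member: the median was 0.0045 on water, with 32 of 64 positive, and -0.11 on methylcellulose, with 20 of 64 positive, where 0.0553% and 0.0356% of all probes were called higher and 0.0712% and 0.15% lower. With ribosomal centring the methylcellulose median was 0.07, of the opposite sign. Between the vehicles, methylcellulose minus water, the median was 0.05 in wild type, which became -0.07 with ribosomal centring, and -0.12 in null mice, and limma called no probe.

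Related mitochondrial genes were followed through lists chosen by function. Among assembly factors and regulators of the complexes, 1 of 25 tested rose with PFOA 3 mg/kg and 2 of 25 with pirinixic acid in wild type. These shares, 4.0% and 8.0%, stand beside the 3.37% and 2.8% of all probes called higher, so the first is near the background. Atpif1, the inhibitor that stops ATP synthase from running backwards, was 14.91, 14.56 and 14.77 with methylcellulose and 16.03, 16.12, 15.56 and 15.58 with pirinixic acid, well apart (1.08 ± 0.19, adjusted p = 0.000702), and its response was lower in null mice (-1.15 ± 0.26, adjusted p = 0.0213). Cox19, a copper-handling assembly factor of complex IV, rose with both compounds (0.67 ± 0.18, adjusted p = 0.0191, and 0.72 ± 0.19, adjusted p = 0.0202). Of 13 genes of the citric acid cycle and pyruvate dehydrogenase, 1 rose with PFOA (7.69%) and 2 with pirinixic acid (15.4%). Suclg1, a subunit of succinyl-CoA ligase, rose by 0.74 ± 0.20 (adjusted p = 0.0211) and 1.02 ± 0.21 (adjusted p = 0.00335), and Dlst, a subunit of oxoglutarate dehydrogenase, by 1.15 ± 0.33 with pirinixic acid (adjusted p = 0.0296).

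Among 11 genes of other electron entry points, coenzyme Q and proton leak, 3 rose (27.3%) and 1 fell with PFOA 3 mg/kg, and 2 rose (18.2%) and 1 fell with pirinixic acid. Coq4, needed for coenzyme Q synthesis, rose with both (0.68 ± 0.20 and 1.19 ± 0.21), as did Slc25a5, an ADP/ATP carrier (0.49 ± 0.12 and 0.57 ± 0.13). Gpd2, the mitochondrial glycerol-3-phosphate dehydrogenase, rose with PFOA (0.99 ± 0.24, adjusted p = 0.0117), and Prodh, proline dehydrogenase, fell (-1.10 ± 0.26, adjusted p = 0.0083). Of 17 regulators of mitochondrial biogenesis none rose and 1 fell with PFOA 3 mg/kg, beside 2.46% of all probes called lower, and none was called with pirinixic acid. In lists of this size 1 gene is already 4.0% to 9.09% of the list, so single calls are given for the gene alone. Ppargc1a, a coactivator of respiratory genes, was 11.39, 11.64, 11.63 and 11.97 with water and 10.50, 9.998, 10.64 and 11.07 with PFOA 3 mg/kg (-1.11 ± 0.32, adjusted p = 0.0341), all treated arrays below all water arrays. Tfam, which packs and transcribes mitochondrial DNA, was 0.37 higher without passing (adjusted p = 0.0638). In null mice no gene of these 4 lists was called with PFOA 3 mg/kg or pirinixic acid. Of all probes, 0.261% were called higher and 0.0395% lower with PFOA 3 mg/kg, and 0% in each direction with pirinixic acid. Prodh in null mice was 15.27 to 15.58 with PFOA 3 mg/kg against 15.83 to 15.94 with water, without overlap. Ppargc1a there was 10.35 to 11.56 against 11.40 to 11.93, which overlap.

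Other measures also differed between treated and vehicle groups. Kupffer cell markers were lower in the treated wild-type groups: the mean of 8 genes was 11.91 to 12.39 with PFOA 3 mg/kg against 12.41 to 12.74 with water (1 of 8 called lower) and 12.09 to 12.35 with pirinixic acid against 12.60 to 12.95 with methylcellulose (4 of 8 called lower). The mean of 5 hepatocyte markers was 19.51 to 19.75 with PFOA against 19.97 to 20.18 with water, with 1 of 5 called lower, and 19.40 to 19.93 with pirinixic acid against 19.67 to 20.41 with methylcellulose, also with 1 of 5 called lower. Of 7 endothelial markers, 2 were called lower and 1 higher with PFOA 3 mg/kg (mean 12.41 to 12.86 against 12.41 to 12.58 with water), and 3 were called lower with pirinixic acid (12.13 to 12.67 against 12.38 to 12.77), at a list median of -0.49. Of 6 stellate cell markers 1 was called lower with PFOA (11.37 to 12.16 against 11.64 to 11.91), and of 3 red blood cell markers 1 was called lower with pirinixic acid (13.54 to 14.14 against 14.25 to 14.67). Over all probes, 2.46% were called lower and 3.37% higher with PFOA 3 mg/kg, and 3.3% and 2.8% with pirinixic acid. In lists this short a single call is not read as a shift of the list. In null mice with PFOA 3 mg/kg the hepatocyte mean was 19.64 to 19.99 against 20.06 to 20.23 with water. The mean of 3 neutrophil markers there was 11.37 to 11.95 against 9.12 to 9.73. Kupffer cell markers there overlapped (12.40 to 12.89 against 12.70 to 12.89). The silent-gene index differed by -0.17 between PFOA 3 mg/kg and water and by 0.15 between pirinixic acid and methylcellulose in wild type. Within groups, the correlation of the tested members with this index had a median of -0.29 and was negative for 46 of 64. Ribosomal protein genes, with 58 probes, differed by 0.12 and -0.05. Their part in the results was not tested beyond the following values: with the index as a covariate, 4 members were called at PFOA 3 mg/kg against 13 for pirinixic acid, and with arrays centred on ribosomal protein genes 4 and 9, at member medians of 0.07 and 0.24.

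The counts depended on single arrays and on how the spread was estimated. With PFOA 3 mg/kg they fell from 8 to 5 without water replicate 4 or PFOA replicate 2 and to 4 without water replicate 2 or PFOA replicate 3. With pirinixic acid they fell from 10 to 4 without methylcellulose replicate 2 and to 5 without pirinixic acid replicate 3. When the spread was taken only from the 2 groups compared, 0 members passed with either compound, beside 441 and 70 probes in all.

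How far members varied together within groups was also described. Over the 2016 pairs of tested members, the median correlation of their deviations from group means across the 39 arrays was 0.157, and 0.118 after the silent-gene index had been fitted. The pairs share arrays and array-wide effects, and no value for pairs of other probes is given here, so these are descriptions. Ndufb3 and Cycs were among those with the widest spread of group means, 1.33 and 1.36, both highest with PFOA 3 mg/kg in wild type and lowest in null mice with methylcellulose.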

How the data were processed

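Liver RNA was hybridised to 39 1-colour Applied Biosystems arrays in 10 groups. The deposited values were used as log2 signals: the authors' table is normalized, with a median of 9.14 on each array, and the log base was taken from its range of 4.85 to 21.5. Its normalization software is not stated. Of 33012 probes, 14411 carry 1 gene symbol, 247 several and 18354 none in the platform annotation. Probes lacking any value (7717) were not tested.

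limma 3.58.1 (R 4.3.3) was fitted to the 25295 complete probes with 1 mean per group over all 39 arrays, so that all groups share the estimate of spread, and p-values were Benjamini-Hochberg adjusted within each of 17 contrasts. A member was called at an adjusted p under 0.05. Errors of differences are SE. The method was tested on simulated data. Named members are those called, at most 12 per contrast, with the bright, dim or isoform members needed to describe each complex, which were chosen after their values were seen. Genes named from a companion list are among the up to 4 with its smallest adjusted p in any treated comparison. Of these, Tfam is named without a call. The members and lists were chosen with earlier results of these data known.

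Alternatives were another probe filter, a replicate or array-set block, the silent-gene index as covariate, ribosomal centring, the mean of a gene's probes, only the groups compared, and each array left out. The number of arrays limits the precision.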

Additional observations from a re-analysis of the deposited data

Results flagged for a closer look

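In 297 examinations of a member or complex level within a group of 4 arrays, 19 (6.4%) had 1 array far from the other 3 by Dixon's criterion; chance alone gives about 1 in 20. In wild type these were Atp5g3 with pirinixic acid replicate 2 (19.18), Atp5md with pirinixic acid replicate 4 (20.36), Ndufa5 with water replicate 2 (16.40) and PFOA 3 mg/kg replicate 4 (16.72), Ndufb3 with PFOA 1 mg/kg replicate 2 (14.22) and Sdhc with water replicate 2 (17.05). In null mice on water they were Atp5g3 replicate 4 (18.95), Ndufa3 replicate 2 (18.32), Ndufa5 replicate 4 (16.47), Sdhb replicate 3 (7.88) and Sdhc replicate 1 (17.27). In treated or methylcellulose null mice they were Atp5g3 (18.84) and Sdha (16.79), both in PFOA 3 mg/kg replicate 1, Uqcr10 with PFOA 1 mg/kg replicate 1 (17.62), Cycs with methylcellulose replicate 4 (17.20) and Sdhd with methylcellulose replicate 1 (17.53). Of the centred levels, the mean over all members was low in wild-type water replicate 2 (-0.13), and complex V was high in wild-type pirinixic acid replicate 3 (0.23) and in null pirinixic acid replicate 2 (0.046).

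The response to pirinixic acid differed between genotypes, by the interaction contrast in limma, for Atp5g3 (-0.78), Ndufa3 (-0.90) and Ndufs4 (-0.79), each lower in null mice.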

How the results depend on the processing

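No named call changed sign under the alternatives run, but member medians near 0, in comparisons with no called member, did. The count of members called with PFOA 3 mg/kg in wild type (8) became 4 with the silent-gene index, 4 with ribosomal centring, 0 with only the groups compared, and, in comparisons added after seeing the data, 0 within the smaller and 4 within the larger array set. In wild type, water and PFOA 3 mg/kg each had only replicates 1 and 4 in the smaller set and 2 and 3 in the larger. Leaving out 1 array gave 4 to 10. The count with pirinixic acid (10) became 0 with only the groups compared and 1 within the larger set, and 4 to 10 with 1 array left out. For the genotype difference with pirinixic acid (3) it became 6 among probes above the median signal, 6 with the replicate block, 0 with only the groups compared and 0 within the larger set, and 0 to 4 with 1 array left out. For the genotype difference with PFOA 3 mg/kg (0) it became 3 above the median signal, 1 with ribosomal centring, and 0 to 1 with 1 array left out. The members' median with PFOA 3 mg/kg (0.18) was 0.0654 with ribosomal centring, which moved the median of all probes from -0.02 to -0.14, and 0.28 within the larger set; with pirinixic acid it was 0.14 to 0.26 with 1 array left out. Between untreated genotypes it was -0.0626 with the index and 0.0945 within the larger set on water, and 0.0664 with ribosomal centring on methylcellulose. These sign changes from 0.0045 and -0.11 were joined by those of methylcellulose against water in wild type (0.05, to -0.07 with ribosomal centring and -0.05 with the index), of 3 against 1 mg/kg in wild type (0.03, to -0.08 with ribosomal centring and -0.097 within the smaller set), of PFOA minus pirinixic acid in wild type (0.02, to -0.15 and -0.11 with centring and index), of pirinixic acid in null mice (0.01, to -0.06 within the smaller set) and of 3 against 1 mg/kg in null mice (-0.05, to 0.02 within the larger set). Some of the values within an array set rest on a single array of a group. For 0.0945 it was null water replicate 2, for -0.097 wild-type PFOA 1 mg/kg replicate 4, and for -0.06 null methylcellulose replicate 1. Single arrays left out also turned the sign of medians that lay between -0.02 and 0.05. The causes were not tested.

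With the replicate number as a block, pirinixic acid gave 13 called members and PFOA 3 mg/kg gave 8. Over 23 pairs of same-numbered arrays the correlation of deviations from group means ran from -0.263 to 0.209. Only 10 exceeded 0.1, so the numbers were not taken to pair the arrays. On the other side, 14 arrays correlated best with their own number, where unrelated numbers would give about 6, a hint from the data of some shared variation within a number.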
